A study of Mus musculus with 2 samples.

Results

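The respiratory chain genes described here are the 108 of 20210 genes in the merged expression table whose symbols name a component of oxidative phosphorylation. They were taken by the start of the symbol: mt-Nd, mt-Co, mt-Cyt and mt-Atp for the 13 genes encoded by the mitochondrial genome, and Nduf, Uqcr, Cox4 to Cox8, Atp5 and Sdha to Sdhd for 95 genes of the nuclear genome. By role, the mitochondrial genes encode 7 subunits of complex I, 1 of complex III, 3 of complex IV and 2 of complex V. The nuclear genes comprise 36 subunits of complex I, 4 of complex II, 8 of complex III, 18 of complex IV and 15 of complex V, together with 8 assembly factors of complex I, 4 of complex II, the supercomplex factor Cox7a2l and the coupling factor Atp5s. The symbol rule also takes the assembly factors, and it takes Ndufa4 and Ndufa4l2, which are counted to complex IV here.

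The respiratory chain of the inner mitochondrial membrane passes electrons from NADH (complex I) and succinate (complex II) through complexes III and IV to oxygen, and complex V, the ATP synthase, uses the resulting proton gradient to make ATP. Complexes I, III, IV and V are built from subunits of both genomes, while complex II is encoded by the nucleus alone. The mitochondrial genes are transcribed as long polycistronic RNAs that are cut and polyadenylated inside the organelle, whereas the nuclear genes are transcribed one by one and their proteins imported. Neurons rely on oxidative phosphorylation to sustain ion gradients and synaptic activity, and astrocytes are known for a larger share of glycolysis.

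The study used 10x Genomics 3′ v3 single-cell RNA-seq on tdTomato+ cells of the arcuate nucleus and median eminence, the part of the mediobasal hypothalamus that controls feeding, from CD-1 mice at postnatal day 10. The control library came from Ins2-Cre;tdTomato+/- mice and the other, called dHet here, from Ins2-Cre;tdTomato+/-;Irx3/5+/- mice, so both carry the Cre driver and the reporter, and only dHet carries a heterozygous loss of the transcription factor genes Irx3 and Irx5. Cre was driven by the Ins2 promoter and recombined a tdTomato reporter, cells were dissociated with papain, and viable red cells were sorted before capture. Each genotype is 1 library from a pool of 5 mice by the sample's own label (5 to 6 by the protocol), so no difference between genotypes has a replicate check, and genotype and library cannot be told apart. Intervals given below are exact 95% intervals for counting error only.

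The merged table held 3479 control cells and 3939 dHet cells with 63100794 and 71827597 unique molecular identifiers (UMIs, counted molecules), a median of 16508 and 17175 per cell. Cells of the merged table held up to 19.9% mitochondrial UMIs in each library, so the shares below are of cells under that limit, and 4 barcode sequences occurred in both libraries. Irx3 gave 95 UMIs in control and 43 in dHet, and Irx5 gave 182 and 110. Clusters were named from marker genes and are called X-like. Neuron-like cells numbered 2069 in control and 2639 in dHet and held 8 of 8 neuron markers in at least 25% of cells. Tanycyte-like cells, the radial glia of the third ventricle floor, numbered 327 and 260 and held 8 of 9 markers, and astrocyte-like cells numbered 459 and 479 and held 10 of 10. Smaller classes were oligodendrocyte precursor-like (96 and 79 cells), oligodendrocyte-like (30 and 39), ependymal-like (28 and 25), cycling (37 and 34) and pars tuberalis-like cells (39 and 14), and 394 and 370 cells stayed unnamed. Median UMIs per cell were 22542 in control and 20960 in dHet for neuron-like cells, 9937 and 8002 for tanycyte-like cells, and 5500 and 6314 for astrocyte-like cells.

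Levels are UMIs of a gene or set over all UMIs of the class, as a percent or as counts per 1000000 UMIs (CPM). A UMI counts a molecule at its 3′ end and is not scaled by gene length, and levels are compared between classes and libraries for a gene or set, not ranked between genes. Between genotypes a gene with at least 200 UMIs in the class was counted as past the threshold when its level, with 5 CPM added, was at least 25% higher or, the same factor, at least 20% lower in dHet. The mitochondrial genes are packed with little or no space between them, and where neighbours overlap a read near a 3′ end may be placed on either gene. The sequences below show the 3 overlaps between coding genes that bear on values given later, on the plus strand of the GRCm38 mitochondrial genome, with the shared bases in capitals.

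end of mt-Nd4l, up to position 10173: ccaaaatctcaacctactacaATGCTAA
start of mt-Nd4, from position 10167: ATGCTAAaaattattcttccctcactaa
end of mt-Atp8, up to position 7969: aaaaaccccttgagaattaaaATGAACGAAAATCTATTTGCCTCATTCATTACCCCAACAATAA
start of mt-Atp6, from position 7927: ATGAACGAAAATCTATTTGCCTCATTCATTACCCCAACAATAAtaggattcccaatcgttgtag
end of mt-Nd5, up to position 13565: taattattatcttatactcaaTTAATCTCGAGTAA

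The last bases of mt-Nd4l are the start codon and following bases of mt-Nd4, an overlap of 7 bases, and both genes lie on 1 shared transcript, as do mt-Atp8 and mt-Atp6 with 43 bases in common. The end of mt-Nd5 shares 14 bases with mt-Nd6, which is read from the opposite strand. Values of mt-Nd4l, mt-Atp8 and mt-Nd6 are therefore given as uncertain between neighbours.

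Transcripts of the 2 genomes stood in a different order across cell classes. Nuclear respiratory chain genes took the largest share of UMIs among the named classes in neuron-like cells, 3.69% in control and 3.52% in dHet, and the lowest in astrocyte-like cells, 1.90% and 2.16%. Mitochondrial genes took 4.60% and 6.30% in neuron-like cells, 5.41% and 6.79% in tanycyte-like cells, and 6.46% and 6.76% in astrocyte-like cells. For each UMI of a nuclear member there were 1.245 mitochondrial UMIs in control neuron-like cells, 2.14 in tanycyte-like cells and 3.40 in astrocyte-like cells, and 1.79, 2.74 and 3.13 in dHet. In both libraries the ratio was thus lowest in neuron-like cells and highest in astrocyte-like cells among these classes.

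**Figure D1:**
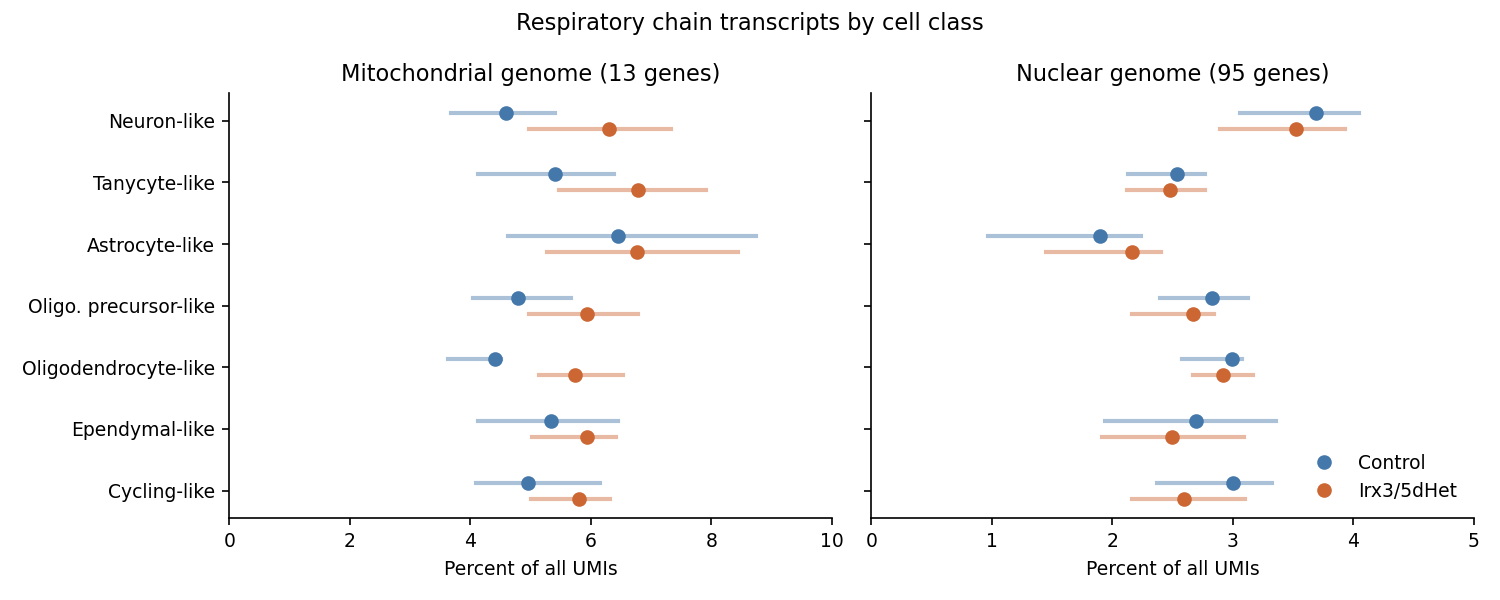
Percent of all UMIs from the 13 mitochondrial genes (left) and the 95 nuclear genes (right) in each cell class, with the control and dHet libraries as separate points (UMIs summed over cells) and bars for the interquartile range over cells. The nuclear share is highest in neuron-like cells (3.69% control, 3.52% dHet) and lowest in astrocyte-like cells (1.90%, 2.16%), while the mitochondrial share is higher in dHet in every class drawn.

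Relative to neuron-like cells of its own library, the nuclear set stood at 0.686 in control and 0.704 in dHet tanycyte-like cells, and at 0.515 and 0.614 in astrocyte-like cells. It stood at 0.766 and 0.757 in oligodendrocyte precursor-like cells, 0.811 and 0.829 in oligodendrocyte-like cells, 0.730 and 0.709 in ependymal-like cells, and 0.813 and 0.737 in cycling cells. The mitochondrial set stood at 1.18 and 1.08 in tanycyte-like cells and at 1.40 and 1.07 in astrocyte-like cells. In oligodendrocyte precursor-like, ependymal-like and cycling cells it lay above neuron-like cells in control (1.04, 1.16 and 1.08) and below in dHet (0.941, 0.941 and 0.920), and in oligodendrocyte-like cells it lay below in both (0.960 and 0.912). Summed over the cells of each class, the lower nuclear set outside neurons was thus present in both libraries. The order of the mitochondrial set was not the same in both. Under alternative groupings of cells the mitochondrial log2 ratio of tanycyte-like to neuron-like cells moved from 0.17 to as much as 0.39.

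Depth differed between the classes and moved with the nuclear share. Within control neuron-like cells the nuclear set took 2.29% of UMIs in cells under 5000 UMIs, 2.46% between 5000 and 10000, 3.12% between 10000 and 20000 and 3.88% above, while the mitochondrial set took 7.88%, 7.01%, 4.96% and 4.42%. Deep neuron-like cells held a larger nuclear and a smaller mitochondrial share than shallow ones. Between 5000 and 10000 UMIs the nuclear share was 2.37% in control and 2.52% in dHet tanycyte-like cells, against 2.46% and 2.10% in neuron-like cells. In the other bands tanycyte-like cells had the lower nuclear share in both libraries, as astrocyte-like cells had in each band. Astrocyte-like cells were the shallowest of the 3 large classes. The part of depth in the low nuclear share of tanycyte-like and astrocyte-like cells was not tested.

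Most nuclear members were lower in glia, and few were higher. A member was counted as different between classes when it differed 1.5-fold or more from neuron-like cells in both libraries, among genes with at least 200 UMIs (93 of the 95 nuclear members; levels with 5 CPM added). In astrocyte-like cells 53 of 93 were lower by this rule, where 27.2% of all genes tested were, and 0 were higher, against 21.1% of all genes. By any amount, 88 of the 93 were lower in both libraries (50.7% of all genes), including 77 of 79 subunits, and the median log2 ratio was -0.79 against -0.11 over all genes. With the clusters of each class weighted equally the count of 53 became 24, a share near the background. Equal weights gave small astrocyte-like clusters the same part as the main one of 405 and 412 cells. One led by Dio2 and Oaf (40 and 50 cells) had neuron markers at 12332 and 12567 CPM. Another, led by Selenop and Fabp7 (14 and 17 cells), had a nuclear share of 4.25% and 3.86%, above that of neuron-like cells. Tanycyte-like cells had 34 lower and 3 higher members, against 24.0% and 21.0% of all genes, with a median of -0.50 against -0.06.

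Counts of lower members in the smaller classes, whose levels rest on fewer cells, lay nearer to the background. Counts of higher members lay below it in each. Ependymal-like cells had 33 lower and 4 higher members (27.6% and 21.9% of all genes), with a median of -0.60 against -0.16. Oligodendrocyte precursor-like cells had 18 lower and 1 higher (17.8% and 19.0%), cycling cells 17 and 3 (20.9% and 18.4%), and oligodendrocyte-like cells 16 and 3 (28.6% and 14.4%). Their median log2 ratios, in this order, were -0.38 against 0.06 over all genes, -0.38 against -0.04, and -0.34 against -0.22. In oligodendrocyte-like cells the share of members past 1.5-fold lower was below that of all genes. Among other gene lists, 31 of 77 mitochondrial ribosome genes were lower in astrocyte-like cells by the same rule, as were 79 of 88 cytosolic ribosome genes, against 27.2% of all genes. For the citric acid cycle 5 of 16 were lower, a share near that of all genes.

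**Figure D2:**
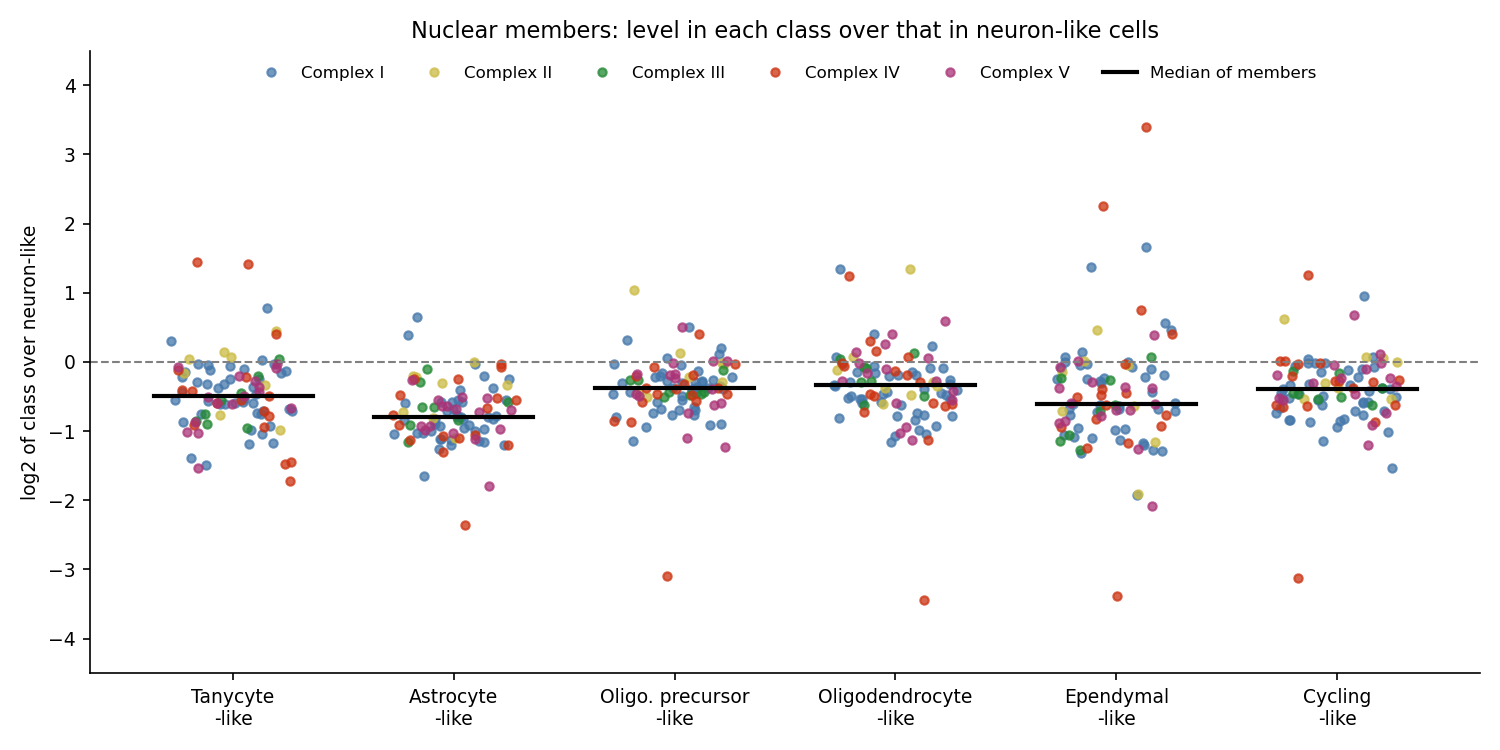
Mean log2 ratio over both libraries of each nuclear member in a class to neuron-like cells, as points coloured by complex, with a bar at the median. The medians lie below 0 in each class (-0.79 in astrocyte-like and -0.50 in tanycyte-like cells). Single points far above 0 include Cox6b2 (3.40), then Ndufa4l2 and Ndufaf3 (1.67), in ependymal-like cells.

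The members lower outside neurons spanned the complexes. Ndufa4, the complex IV subunit first assigned to complex I, gave 1180 CPM in control and 1127 in dHet neuron-like cells, and 397 and 428 in tanycyte-like cells. Ndufa5, a complex I subunit of the peripheral arm, gave 480 and 454 in neuron-like cells, 160 and 166 in tanycyte-like cells and 126 and 113 in ependymal-like cells. Ndufv3, an accessory subunit of the NADH-oxidising module, gave 423 and 419 in neuron-like and 115 and 149 in astrocyte-like cells. Each was lower in both glial libraries than in either neuron-like library. Sdhb, the iron-sulfur subunit of complex II, gave 308 and 287 in neuron-like and 79.9 and 71.9 in ependymal-like cells. Cox7a2l, a factor of the supercomplex of complexes III and IV, gave 442 and 454 in neuron-like and 161 and 200 in astrocyte-like cells.

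The members higher outside neurons by the 1.5-fold rule were assembly factors, the isoforms Cox6b2 and Ndufa4l2, and Atp5g2 in cycling cells. Ndufaf3 and Ndufaf8, which help to build complex I, gave 96.8 and 95.7 CPM (Ndufaf3) and 52.9 and 49.5 (Ndufaf8) in neuron-like cells, against 291 and 344, and 126 and 157, in ependymal-like cells. Ndufaf2, another factor of complex I, gave 62.6 and 57.0 in neuron-like cells, 167 and 151 in oligodendrocyte-like cells and 113 and 127 in cycling cells. Sdhaf1, which inserts iron-sulfur clusters into complex II, gave 38.3 and 36.1 in neuron-like cells and 95.4 and 109 in oligodendrocyte-like cells. Ndufaf4 gave 65.8 and 58.3 in neuron-like and 111 and 89.6 in astrocyte-like cells. Ndufaf4 missed the rule, and in each of these cases both libraries of the class exceeded both neuron-like libraries.

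Subunit isoforms encoded by separate genes differed most between classes. The c-ring of ATP synthase is made from an identical mature protein encoded by Atp5g1 (GRCm38 11:96068852-96075670), Atp5g2 (15:102662864-102672352) and Atp5g3 (2:73908447-73911326). Atp5g1 gave 920 CPM in control and 952 in dHet neuron-like cells, 326 and 315 in tanycyte-like cells, and 226 and 314 in astrocyte-like cells. Atp5g2 gave 542 and 502 in neuron-like cells, 486 and 506 in tanycyte-like cells, and 790 and 705 in oligodendrocyte precursor-like cells. Atp5g1 therefore gave 62.9% and 65.5% of the UMIs of this pair in neuron-like cells, 40.2% and 38.4% in tanycyte-like cells, 42.2% and 46.9% in astrocyte-like cells, and 33.9% and 35.4% in oligodendrocyte precursor-like cells. The neuron-like share lay above that of every other class named here in both libraries, and ependymal-like (35.2% and 35.1%), oligodendrocyte-like (34.8% and 41.6%) and cycling cells (34.2% and 30.6%) were close to the precursor-like value. Atp5g3 gave 521 and 493 in neuron-like cells and 239 and 252 in tanycyte-like cells.

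Cox6a2 (7:128205435-128206387), known as the heart and muscle isoform of the complex IV subunit whose widespread form is Cox6a1, was present in neurons and varied strongly among them. It gave 67.1 CPM in control and 50.8 in dHet neuron-like cells, 15.2 and 13.2 in tanycyte-like cells and 7.07 and 7.58 in astrocyte-like cells. A UMI was seen in 35.2% and 29.7% of neuron-like cells. Over the 18 neuron-like clusters with at least 25 cells in each library the level ran from 0 to 284 CPM in control (median 50.4) and from 0.433 to 244 in dHet (median 49.9). The 2 libraries ordered the clusters alike (Spearman's rho 0.97 over 18 clusters that share a library on each axis).

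The cluster led by Trh and Ebf1 had the highest Cox6a2 level, 284 CPM in control and 244 in dHet. In control it was followed by 2 clusters marked by Crabp1, one with Vgll3 (218 and 157) and one with Nts (161 and 109), and by the cluster of Nrn1 and Vgll2 (108 and 75.3). Pomc neurons, which reduce feeding, had 63.5 and 53.4, and Agrp/Npy neurons, which drive it, had 8.00 and 6.76. The lowest were the clusters of Bcl11b and Pthlh (2.08 and 1.11), Ghrh and Gal (1.81 and 0.433), and Grp and Vip (0 and 4.48, from 0 and 2 UMIs).

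**Figure D3:**
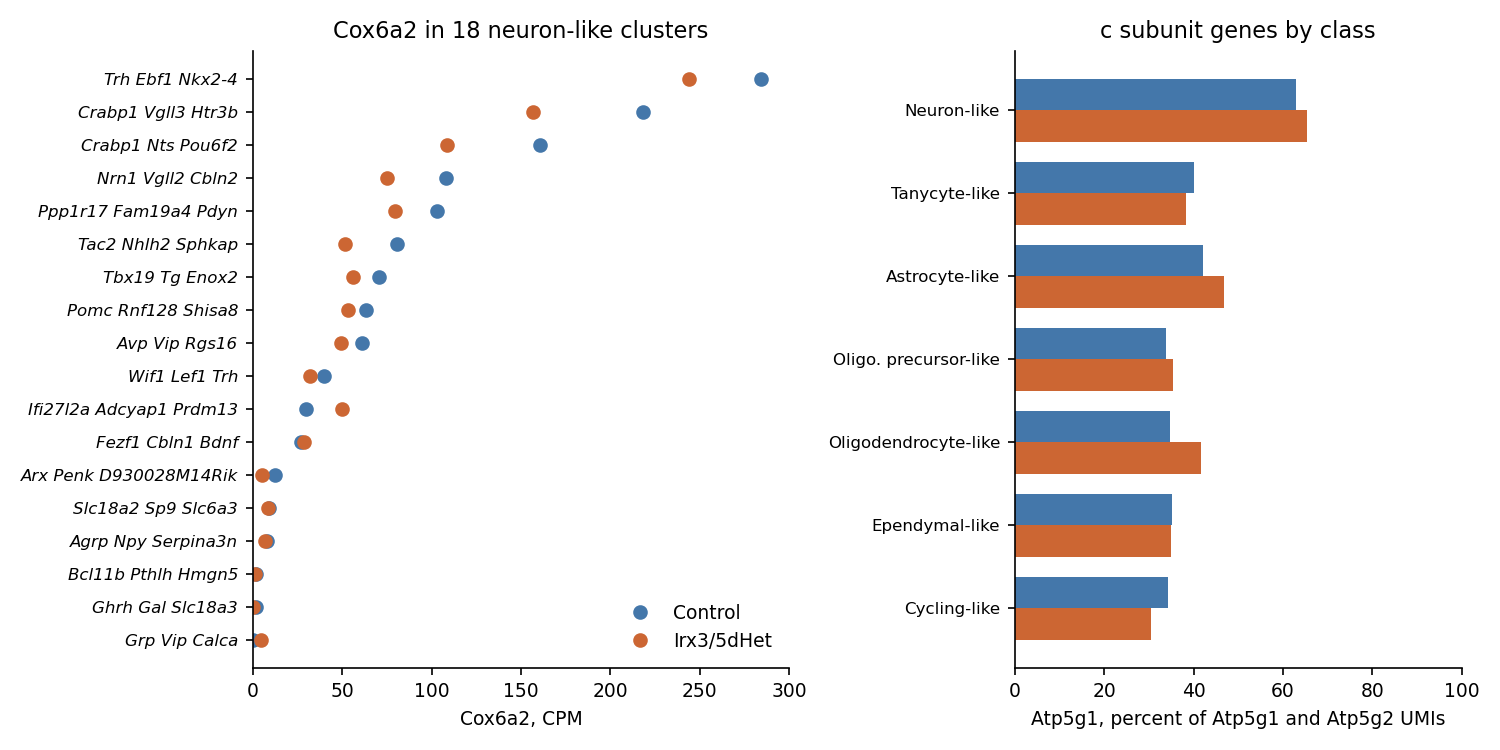
Cox6a2 level in CPM in the 18 neuron-like clusters (left) and the percent of Atp5g1 among Atp5g1 plus Atp5g2 UMIs by class (right, bars), with 1 point or bar per library. Cox6a2 ranges up to 284 CPM in control and 244 in dHet with a Spearman's rho of 0.97 between the libraries, and the Atp5g1 percent is highest in neuron-like cells (62.9% and 65.5%).

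Other tissue-restricted isoforms were sparse. Cox6b2 (7:4751792-4753094), known as the testis form of a complex IV subunit, gave 16.5 and 15.1 CPM in neuron-like cells, 49.8 and 53.8 in tanycyte-like cells and 196 and 234 in ependymal-like cells. The ependymal-like value came from 81 and 91 UMIs in 12 of 28 and 10 of 25 cells, and the 5 cells with the most UMIs held 79.0% and 74.7% of them. It made up 27.8% and 36.7% of the UMIs of Cox6b1 and Cox6b2 there, against 2.62% and 2.53% in neuron-like cells.

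Cox4i2 (2:152754173-152765037), the oxygen-sensitive isoform of Cox4i1, gave 36 and 38 UMIs in 28 of 327 and 30 of 260 tanycyte-like cells, 10.9 and 16.2 CPM. Neuron-like cells gave 3 and 10 UMIs in all. Ndufa4l2 (10:127514967-127517154), a hypoxia-responsive paralog of Ndufa4, gave 9.11 and 19.2 CPM in tanycyte-like cells, where 5 cells held 66.7% and 80.0% of its UMIs, and 1.85 and 1.96 in neuron-like cells. Its level was higher in ependymal-like cells, 33.9 and 23.1 CPM, from 14 and 9 UMIs in 9 of 28 and 6 of 25 cells. Cox4i2 and Ndufa4l2 are also expressed by mural cells. Mural markers summed to 18.5 CPM in control and 151 in dHet tanycyte-like cells, and their part in the tanycyte-like values was not tested. Cox7a1 gave 4.49 and 4.36 CPM and Cox7b2 4.20 and 3.51 in neuron-like cells, and Cox8b gave 0 UMIs in both.

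Between genotypes, mitochondrial transcripts were higher in the dHet library in every class, while nuclear transcripts were slightly lower in most. Over all cells the mitochondrial set went from 4.77% of UMIs in control to 6.31% in dHet, a ratio of 1.32, and the nuclear set from 3.51% to 3.39%, a ratio of 0.968. The mitochondrial ratio was 1.37 in neuron-like cells (1.368 to 1.373), 1.254 in tanycyte-like cells (1.245 to 1.262) and 1.05 in astrocyte-like cells (1.041 to 1.054). In the small classes it was 1.24 for oligodendrocyte precursor-like, 1.30 for oligodendrocyte-like, 1.11 for ependymal-like, 1.17 for cycling and 1.27 for pars tuberalis-like cells.

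The same difference appeared in the median cell of each of the 3 large classes. The median neuron-like cell had 4.49% mitochondrial UMIs in control (interquartile range 3.67 to 5.41) and 5.88% in dHet (4.97 to 7.33). Medians were 5.18% and 6.45% in tanycyte-like cells and 6.43% and 6.74% in astrocyte-like cells. The upper quartile of astrocyte-like cells went the other way, from 8.73% in control to 8.44% in dHet. Cells with at least 10% mitochondrial UMIs made up 3.58% of control and 12.9% of dHet neuron-like cells, 5.50% and 9.23% of tanycyte-like cells, and 18.3% and 14.6% of astrocyte-like cells. The whole neuron-like distribution was shifted, with the lower quartile of dHet above the median of control.

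**Figure D4:**
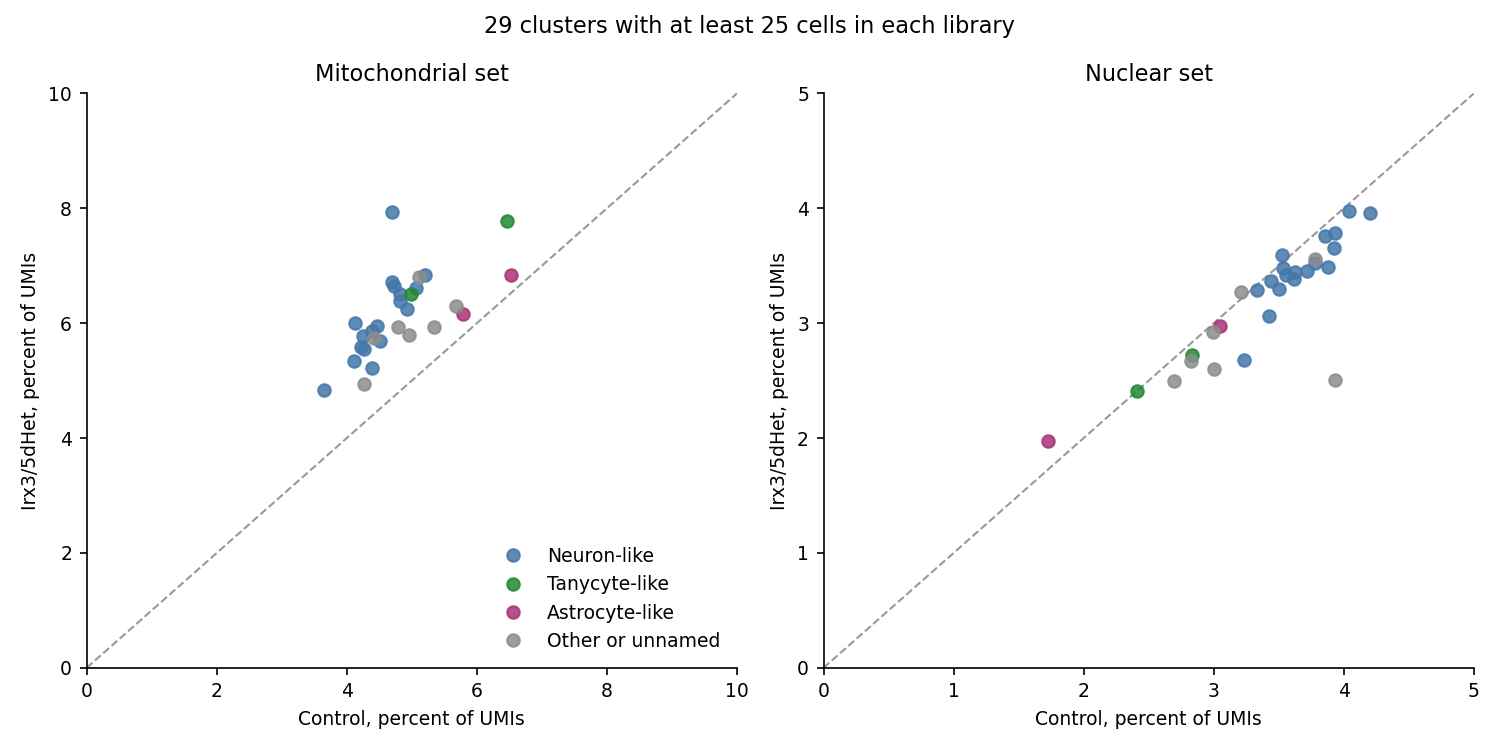
Percent of UMIs from the mitochondrial set (left) and nuclear set (right) in control (horizontal axis) and dHet (vertical axis), with 1 point for each of the 29 clusters that had at least 25 cells in each library and a dashed line of equality. The mitochondrial set is above the line in 29 of 29 clusters, and the nuclear set in 4 of 29.

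The difference was present in each cluster large enough to compare. In 29 of 29 clusters with at least 25 cells per library the mitochondrial set was higher in dHet, by 1.05-fold to 1.69-fold with a median of 1.30, and each counting interval lay above 1. The nuclear set was higher in 4 of 29, with ratios of 0.638 to 1.14 and a median of 0.951. Agrp/Npy neurons had 4.93% mitochondrial UMIs in control and 6.24% in dHet (1.27), Pomc neurons 5.20% and 6.84% (1.32), and the group of Ghrh, Th and Gal neurons 4.34% and 6.06% (1.40). Their nuclear sets went from 4.20% to 3.96%, 3.78% to 3.52% and 3.92% to 3.76%.

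The largest mitochondrial ratio came from a neuron-like cluster of 118 control and 169 dHet cells led by Fezf1, Cbln1, Bdnf and Adcyap1. Its mitochondrial set went from 4.70% to 7.93% (1.69) and its nuclear set from 3.23% to 2.68% (0.830). The median cell of the cluster had 4.52% and 8.41% mitochondrial UMIs, and median UMIs per cell went from 31409.5 to 25707. The other neuron-like clusters together went from 4.59% to 6.17%. The smallest ratios were in 2 astrocyte-like clusters, one led by Agt and Ednrb (1.05) and one by Dio2 and Oaf (1.06), and among neuron-like clusters in that of Avp and Vip (1.19).

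Other measures of cell state differed between the libraries beside the mitochondrial share. Immediate early genes, which papain dissociation is known to induce, were lower in dHet: Fos went from 228 to 72.0 CPM in neuron-like and from 1382 to 617 in tanycyte-like cells, and 13 of 19 such genes were past the threshold lower in neuron-like cells and 0 higher, where 1.81% and 0.796% of all genes were. Heat shock genes in sum stood at 0.993 of control in neuron-like and 0.755 in tanycyte-like cells. The inducible Hspa1a went from 31.5 to 15.1 CPM in neuron-like cells and from 462 to 95.6 in tanycyte-like cells, and Hspa1b from 20.6 to 8.41 and from 446 to 121. The nuclear RNA Malat1 went from 14578 to 15671 CPM in neuron-like cells and from 43263 to 47212 in tanycyte-like cells. In astrocyte-like cells Fos went from 115 to 78.5 CPM, while immediate early genes in sum went from 0.0754% to 0.0730% of UMIs. Heat shock genes in sum went from 0.316% to 0.370% there, Hspa1a from 35 to 7 UMIs and Malat1 from 114420 to 103206 CPM. Within bands of UMIs per cell (under 5000, to 10000, to 20000 and above) the neuron-like mitochondrial ratio was 1.22, 1.37, 1.41 and 1.33. It was thus above 1 within each band, and below the overall 1.37 in the shallowest and the deepest. In the same bands it was 1.16, 1.27, 1.27 and 1.19 in tanycyte-like cells and 0.978, 1.11, 1.21 and 1.04 in astrocyte-like cells. The part of dissociation or RNA quality in the mitochondrial difference was not tested.

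The mitochondrial genes did not move as 1 block. In neuron-like cells 12 of 13 were higher in dHet, 9 of them past the threshold, where 0.796% of all 12182 genes tested were that much higher and 39.7% were higher by any amount. By complex, the mitochondrial subunits of complex I went from 10973 to 16475 CPM (1.501), complex III from 5055 to 6469 (1.28), complex IV from 20602 to 28424 (1.38) and complex V from 9357 to 11661 (1.246). Complex I had the largest ratio and complex V the smallest in neuron-like cells. In tanycyte-like cells the ratios were 1.26, 1.18, 1.32 and 1.15, and in astrocyte-like cells 1.08, 0.960, 1.09 and 0.958, so complexes III and V were lowest in each class.

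In neuron-like cells the highest ratios were those of the genes at the start of the heavy-strand transcript, next to the ribosomal RNAs. mt-Nd1 (M:2751-3707), a core membrane subunit of complex I, went from 3106 to 4888 CPM in neuron-like cells (1.57), and mt-Nd2 (M:3914-4951), its neighbour, from 2916 to 4652 (1.60). mt-Co1 (M:5328-6872), the catalytic subunit of complex IV, went from 4540 to 6651 (1.46). mt-Nd1, mt-Nd2 and mt-Nd4 were higher in dHet in 18 of 18 neuron-like clusters. The copper-binding subunit mt-Co2 went from 6565 to 8801 (1.34) and mt-Co3 from 9497 to 12972 (1.37). mt-Atp6, the proton channel subunit of ATP synthase, went from 9299 to 11594 (1.247, just under the threshold), and mt-Cytb, the cytochrome b of complex III at the far end of the genome, from 5055 to 6469 (1.28).

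Further complex I subunits spanned a wide range in neuron-like cells. mt-Nd3 went from 845 to 1239 CPM (1.47), mt-Nd4 (M:10167-11544) from 3503 to 5019 (1.43) and mt-Nd5 from 330 to 428 (1.30). mt-Nd6 (M:13552-14070, minus strand), the only member encoded on the other strand, gave 15.8 and 17.4 (1.10), and mt-Atp8 58.7 and 67.0 (1.14). Across the 12 genes of the heavy-strand transcript, Spearman's rho between position and log2 ratio was -0.54 in neuron-like, -0.61 in tanycyte-like and -0.47 in astrocyte-like cells, a description over genes that share transcripts and libraries.

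mt-Nd4l (M:9877-10173) went against the rest. It gave 258 CPM in control and 233 in dHet neuron-like cells (0.903, 0.882 to 0.926) while mt-Nd4, with which it shares a transcript and the 7 overlapping bases printed above, was 1.43-fold higher. It was lower in 17 of 18 neuron-like clusters. In tanycyte-like cells mt-Nd4l went from 247 to 161 CPM (0.650, 0.574 to 0.736) and in astrocyte-like cells from 266 to 195 (0.732, 0.658 to 0.813). It was also lower in oligodendrocyte precursor-like (230 and 170) and ependymal-like cells (293 and 172). In cycling (214 and 172) and oligodendrocyte-like cells (149 and 138) the counting interval of the ratio spanned 1. Whether reads moved between these overlapping neighbours was not tested.

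Tanycyte-like cells followed neuron-like cells with smaller ratios. There 6 of 13 mitochondrial genes were past the threshold higher in dHet and 2 lower, against 5.16% and 7.65% of 4943 genes tested. mt-Co1 went from 6466 to 9081 CPM (1.40), mt-Nd1 from 2516 to 3263 (1.30), and mt-Atp6 from 11596 to 13329 (1.15). The genes lower were mt-Nd4l and mt-Nd6, the second from 153 to 68 UMIs (46.4 to 29.0 CPM, ratio 0.625, 0.463 to 0.837).

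In astrocyte-like cells the genes divided. Of 12 with enough UMIs, 0 were past the threshold higher in dHet and 1, mt-Nd4l, lower, against 8.6% and 9.59% of 5381 genes tested. mt-Nd1 went from 3570 to 4400 CPM (1.23) and mt-Co1 from 8225 to 9299 (1.13). mt-Nd2 gave 3815 and 3888 (1.02), mt-Atp6 12974 and 12441 (0.959) and mt-Cytb 6342 and 6091 (0.960). The astrocyte-like mitochondrial log2 ratio of 0.07 moved between 0.02 and 0.13 over the alternatives tried.

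**Figure D5:**
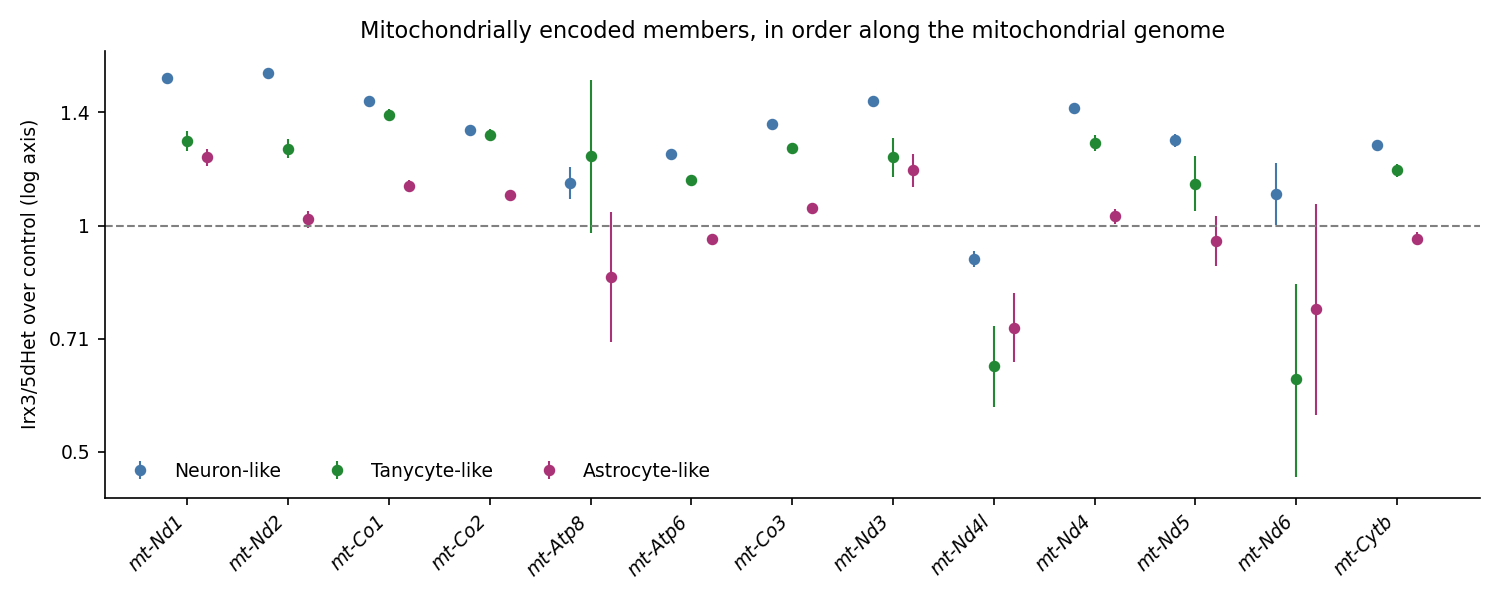
Ratio of dHet to control (log axis) for the 13 mitochondrial genes in the order of the genome, in neuron-like, tanycyte-like and astrocyte-like cells, with bars for the 95% counting interval. mt-Nd1 and mt-Nd2 have the highest neuron-like ratios (1.57 and 1.60), and mt-Nd4l lies below 1 in the 3 classes (0.903, 0.650 and 0.732).

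The nuclear set was lower in dHet neuron-like cells by a small margin spread over many genes. Its ratio was 0.954 (0.952 to 0.956), and 72 of 93 members were lower and 21 higher, where 60.3% of all genes were lower. Past the threshold 2 were lower and 0 higher, against 1.81% and 0.796% of all genes. The median log2 ratio was -0.07 for the members and -0.03 for all genes. By complex the ratios were 0.959 for complex I, 0.924 for II, 0.964 for III, 0.924 for IV and 0.972 for V. When cells above 10% mitochondrial UMIs were left out, the neuron-like nuclear log2 ratio of -0.07 moved to -0.02, and with the UMIs of the nuclear genome as the total it was -0.04.

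The 2 members past the threshold were Cox6a2 and Sdhd. Cox6a2 went from 67.1 to 50.8 CPM (0.758, 0.720 to 0.797) and was lower in 15 of 18 neuron-like clusters, the exceptions being the clusters of Ifi27l2a (29.6 and 50.2), of Fezf1 (27.0 and 29.0) and of Grp and Vip. With the clusters weighted equally the log2 ratio of Cox6a2 was -0.31, against -0.37 over summed cells, and so just short of the threshold. Sdhd (9:50596357-50603812), a membrane anchor of complex II, went from 129 to 99.0 CPM (0.766, 0.739 to 0.794), and it was lower in Agrp/Npy neurons (123 and 92.2), in Pomc neurons (131 and 102) and in the Ghrh, Th and Gal group (126 and 97.8). The other subunits of complex II stood nearer to 1: Sdha, which binds succinate, gave 146 and 145 CPM, Sdhb 308 and 287, and Sdhc, the second anchor, 113 and 112.

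Complex IV subunits were among the lower members. Cox8a, the smallest and widespread isoform, went from 1326 to 1159 CPM (0.874), and Cox8a and Cox7a2 (760 and 703) were lower in 18 of 18 neuron-like clusters. Cox6c gave 822 and 730 (0.889), Cox7b 629 and 558 (0.888), Cox7c 963 and 872 (0.906) and Cox4i1 1044 and 981 (0.940), whereas Cox5a gave 776 and 784 (1.01). Ndufa1, a small complex I subunit, went from 227 to 193 (0.854). Of these, 0 passed the threshold.

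The highest ratio in neuron-like cells was that of Atp5k (5:108433244-108434448), the subunit e of ATP synthase that joins its dimers, from 368 to 416 CPM (1.13). It was 1.11 in Agrp/Npy neurons, 1.16 in Pomc neurons and 1.18 in tanycyte-like cells (254 and 298). Atp5g1 gave 920 and 952 in neuron-like cells and was higher in 12 of 18 clusters, while its paralogs Atp5g2 (542 and 502) and Atp5g3 (521 and 493) were lower in dHet. Atp5f1, a subunit of the peripheral stalk, was level at 782 in both. The core complex I subunit Ndufs1 (86.7 and 91.3) was higher by 1.05-fold.

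In tanycyte-like cells the nuclear set gave 2.53% and 2.48% (0.980, 0.969 to 0.990), with 34 of 84 members higher and 50 lower, against 44.2% and 55.8% of all genes. The direction turned when only cells of middle depth were kept or cells were weighted equally. From the shallowest to the deepest band of UMIs per cell the nuclear ratio was 1.20, 1.06, 0.964 and 0.860. Against 7.65% of all genes lower and 5.16% higher past the threshold, Ndufaf2 was the 1 member past it, and the count moved between 0 and 5 over the alternatives tried. Ndufaf2 went from 185 to 102 UMIs (56.2 to 43.5 CPM, 0.775, 0.603 to 0.993). Besides Atp5k, the highest ratios were those of Uqcrfs1, the Rieske protein of complex III (153 and 171 CPM), and Ndufv3 (173 and 193). Ndufab1, the mitochondrial acyl carrier protein (304 and 248), and Ndufb10 (314 and 265) had the lowest after Ndufaf2.

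With UMIs summed over all depths, astrocyte-like cells were the class with a higher nuclear set in dHet. The set took 1.90% of UMIs in control and 2.16% in dHet (1.14, 1.12 to 1.15). Of 83 members 73 were higher and 10 lower, where 49.2% of all genes were higher and 50.8% lower. Past the threshold 7 were higher and 1 lower, against 8.6% and 9.59% of all genes, so the higher share was near the background and the lower share below it. The median log2 ratio was 0.18. Subunits were higher in 69 of 74 cases and assembly factors in 3 of 8, and by complex the ratios were 1.13, 1.07, 1.13, 1.15 and 1.16 for complexes I to V.

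Atp5g1 went from 226 to 314 CPM in astrocyte-like cells (1.39, 1.26 to 1.53), and Cox5a, a complex IV subunit that binds its regulators, from 288 to 396 (1.37, 1.259 to 1.501). Ndufa5 (168 and 218), Ndufv3 (115 and 149), Ndufb6, Ndufa8 and Sdhaf4 were also past the threshold. Ndufaf1, an assembly factor of complex I, was past it in the other direction with 109 and 97 UMIs (38.6 to 28.3 CPM). Cox8a (869 and 855), Ndufa1 (131 and 108) and Sdhd (65.8 and 59.2) were lower here too.

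Several values moved with the astrocyte-like result. Cytosolic ribosome genes were at 1.16 of control (78 of 82 higher), glycolysis genes at 1.18 and carriers and porins of the mitochondrial membranes at 1.15 (10 of 10 higher), while Malat1 went from 114420 to 103206 CPM. The summed neuron markers went from 1713 to 2650 CPM and median UMIs per cell from 5500 to 6314. The main astrocyte-like cluster, led by Agt and Ednrb with 405 and 412 cells, had a nuclear set of 1.73% and 1.97% (1.14) with neuron markers at 374 and 620 CPM. The cluster of Dio2 and Oaf, with 40 and 50 cells, had 3.05% and 2.97% (0.975) with neuron markers at 12332 and 12567 CPM, close to the 13361 and 13956 of neuron-like cells. The cluster of Selenop and Fabp7, with 14 and 17 cells, had 4.25% and 3.86% (0.907). With the astrocyte-like clusters weighted equally, the small ones as much as the main one, the log2 ratio moved from 0.19 to 0.05. From the shallowest to the deepest band of UMIs per cell the ratio was 1.28, 1.10, 1.09 and 0.936. The part of depth and of neuronal RNA in this difference was not tested.

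In the small classes the nuclear set was lower in dHet, at 0.943 for oligodendrocyte precursor-like, 0.975 for oligodendrocyte-like, 0.927 for ependymal-like and 0.865 for cycling cells. In cycling cells 12 of 49 members with enough UMIs were past the threshold lower and 0 higher, against 17.8% and 7.44% of all genes, and 44 of 49 were lower by any amount, against 65.4%. Cycling cells numbered 37 and 34. Their markers of other classes differed between the libraries: pars tuberalis markers summed to 6.77 CPM in control and 784 in dHet, and neuron markers to 801 and 1748. The part of this in the cycling values was not tested.

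Gene lists that serve the chain without belonging to it stood between 0.903 and 1.03 of control in sum in neuron-like cells, where 60.3% of all genes were lower and 1.81% past the threshold lower. Electron carriers and their synthesis genes were at 0.937 of control in sum, with 14 of 17 lower and Coq10b, a coenzyme Q binding protein, past the threshold (0.751). Regulators of mitochondrial gene expression were lower in 18 of 20 cases. Yy1, a transcription factor, went from 80.7 to 62.5 CPM, past the threshold, while Ssbp1, which binds single-stranded mitochondrial DNA, was at 0.829, and Lrpprc, which stabilises mitochondrial mRNA, went from 42.9 to 51.6 CPM (1.20). Of the assembly factors outside the symbol rule 20 of 32 were lower, a share near that of all genes, and 2 were past the threshold, the copper chaperone Cox17 (129 and 98.9) and Coa4 (29.1 and 21.9). Mitochondrial ribosome genes were at 0.954 (54 of 77 lower, 0 past the threshold), citric acid cycle genes at 0.998, carriers and porins at 1.00 and glycolysis genes at 1.03.

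The promoters of the nuclear members shared 2 short motifs more often than promoters at large. RefSeq windows of GRCm38.p6 covering 250 bases before an annotated start were matched by symbol for 77 of the 95 members and searched on both strands. A gene can have more than 1 window (32851 windows over 27025 genes), and it was counted when any window held the motif. These starts can differ from the gene coordinates given above. The Atp5g2 window below lies inside its gene span as given above, and the Atp5k motif overlaps the start of its span. The palindromic core of sites for NRF1, a regulator of respiratory genes, shown in capitals below and searched with 1 base free, was found in 14 of 77 (18.2%), against 4.23% of 27025 genes. CCGGAAG, a core of sites for ETS factors such as GABP, was found in 16 of 77 (20.8%), against 7.83%. The 27025 genes are all those with a window, and they were not matched to the members for expression or base content. The following windows are printed, with the motif in capitals and in the direction of the gene, because their genes carry values given above: Atp5k had the highest and Sdhd one of the lowest neuron-like ratios, Atp5g2 the lower share of its isoform pair in neurons, and Ndufaf4 a higher level in astrocyte-like cells.

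Atp5k, chr5:108434420-108434469, minus strand: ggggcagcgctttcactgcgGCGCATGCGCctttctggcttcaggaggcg
Sdhd, chr9:50603899-50603948, minus strand: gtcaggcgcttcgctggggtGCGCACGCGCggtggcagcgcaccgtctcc
Atp5g2, chr15:102671060-102671109, minus strand: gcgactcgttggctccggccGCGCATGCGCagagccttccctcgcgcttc
Ndufaf4, chr4:24897950-24897999, plus strand: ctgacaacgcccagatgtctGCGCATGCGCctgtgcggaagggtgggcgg

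Members with ratios on opposite sides of 1 in neuron-like cells carry the same core: Atp5k stood at 1.13 and Sdhd at 0.766. The matches describe these windows only and say nothing of binding.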

How the data were processed

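The data are 2 libraries of 10x Genomics 3′ v3 RNA-seq, 1 per genotype, grouped by the genotype in the labels. The authors deposited UMI counts per gene and barcode, as a matrix per library (Cell Ranger 3.0.2, per the file headers, on mm10, per the submitters' processing notes) and as 1 merged table of both, which was used here. The annotation and the filter of the merged table are not given in the sources used here. Its counts equal those of the matrices except in 1485 of 34087726 nonzero entries, 0 of them in the rows described. Of the matrix barcodes under 20% mitochondrial UMIs, 141 in control and 83 in dHet are absent from the merged table. Each of these held at least 7505 genes, and cells of the merged table held at most 7501.

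From these counts, cells of both libraries were clustered together with scanpy 1.11.5 in Python 3.11.15 (2000 variable genes without the members, 30 components, 15 neighbours, Leiden resolution 1) and clusters were named from at least 3 markers detected in 25% of cells, unless another class had more markers among the 10 leading genes. The other clusters stayed unnamed, some with neuron markers. Scrublet called 23 control and 21 dHet barcodes doublets, which were kept, and leaving them out was an alternative. UMIs were summed per class and library. Ratios carry exact conditional binomial 95% intervals and shares exact Clopper-Pearson intervals (scipy 1.17.1), for counting error only, and no test between libraries was made. A gene's log2 ratio used 5 CPM as pseudocount and 200 UMIs as minimum, and a 1.25-fold (between genotypes) or 1.5-fold (between classes, in both libraries) difference was counted. The scripts were tested on simulated data.

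The members and gene lists were chosen with earlier results of these data known. Genes named are the mitochondrial members, the 8 nuclear members with most UMIs, paralogous isoforms, the 4 Sdh subunits, the 4 highest and 4 lowest members per comparison, and members past the threshold in other lists. Further genes named, such as other Cox subunits and marker, stress and reference genes, were picked with their values known. Of 2 genes with the symbol Atp5o in the matrices the merged table holds 1, as Atp5o.1, which was counted. Alternatives tried were the cells kept, doublets, depth, weights, clustering resolution, denominator, scaling, pseudocount and UMI minimum.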

Additional observations from a re-analysis of the deposited data

Results flagged for a closer look

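The nuclear respiratory chain genes stood on different sides of 1 between cell classes in the comparison of dHet with control. The set was higher in dHet in astrocyte-like cells (1.14) and lower in neuron-like (0.954), tanycyte-like (0.980), oligodendrocyte precursor-like (0.943), oligodendrocyte-like (0.975), ependymal-like (0.927) and cycling cells (0.865). With 1 library per genotype this difference between classes was not tested.

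Barcodes with at least 20% mitochondrial UMIs, which the per-library matrices hold and the merged table does not, were more frequent in dHet. They were 256 of 4278 barcodes (5.98%, exact interval 5.29 to 6.74) in the dHet matrix and 74 of 3694 (2.003%, 1.58 to 2.51) in the control matrix. Their median UMI count was 2660.5 in dHet and 1801.5 in control, far below that of the cells described above.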

How the results depend on the processing

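Set values here are log2 ratios, and each setting changed 1 choice, except that barcodes of the matrices also bring other limits on genes per cell. The direction of the mitochondrial set between genotypes held in each of the alternatives tried in neuron-like (0.35 to 0.49), tanycyte-like (0.27 to 0.38) and astrocyte-like cells (0.02 to 0.13). The nuclear set held its direction in neuron-like (-0.08 to -0.02) and astrocyte-like cells (0.05 to 0.24) and changed it in tanycyte-like cells with cells of middle depth or cells weighted equally. Among named members in neuron-like cells, Cox6a2 ranged from -0.42 to -0.30, Sdhd from -0.39 to -0.31 and mt-Nd4l from -0.21 to -0.12, and in astrocyte-like cells Atp5g1 ranged from 0.25 to 0.66.

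The settings were barcodes of the matrices with at least 500 genes and up to 20% or any share of mitochondrial UMIs, a 10% maximum, doublets left out, the middle 50% of cells by UMIs (middle depth), cells or clusters weighted equally, Leiden resolutions 0.5 and 2, UMIs of the nuclear genome with or without cytosolic ribosomal proteins as the total, scaling by the median gene, other pseudocounts and UMI minimums. Adding unnamed clusters with neuron markers and leaving out the Fezf1 cluster were chosen after seeing the data. Values that moved beyond counting error, or counts by over 1.5 times, follow, and the cause was not tested. For sets over neuron-like cells the limit was wider, the span from the lower to the upper end of both libraries' intervals. Within that span the mitochondrial set in astrocyte-like over neuron-like cells (0.30) ranged from 0.23 to 0.34.

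The mitochondrial set in neuron-like cells between genotypes (0.45) became 0.46 with matrix barcodes to 20%, 0.49 with matrix barcodes without maximum or middle depth, 0.35 with a 10% maximum, 0.47 with equal cells, 0.43 with equal clusters or the Fezf1 cluster left out, 0.48 with nuclear total or non-ribosomal nuclear total or median scaling and 0.44 with added neuron clusters. The nuclear set in neuron-like cells between genotypes (-0.068) became -0.079 with matrix barcodes to 20% or equal clusters, -0.083 with matrix barcodes without maximum, -0.015 with a 10% maximum, -0.025 with middle depth, -0.071 with equal cells, -0.042 with nuclear total, -0.040 with non-ribosomal nuclear total or median scaling and -0.054 with the Fezf1 cluster left out. The count of nuclear members past the threshold in neuron-like cells between genotypes (2) became 1 with middle depth or equal clusters or pseudocount 20 or added neuron clusters. The mitochondrial set in tanycyte-like cells between genotypes (0.33) became 0.28 with matrix barcodes to 20% or resolution 2, 0.29 with a 10% maximum, 0.38 with middle depth, 0.27 with resolution 0.5, 0.35 with nuclear total or median scaling and 0.34 with non-ribosomal nuclear total. The nuclear set in tanycyte-like cells between genotypes (-0.030) became -0.048 with matrix barcodes without maximum, 0.050 with middle depth, 0.012 with equal cells, -0.060 with resolution 0.5, -0.0088 with nuclear total, -0.014 with non-ribosomal nuclear total and -0.0021 with median scaling. The count of nuclear members past the threshold in tanycyte-like cells between genotypes (1) became 0 with matrix barcodes to 20% or matrix barcodes without maximum or middle depth or resolution 2 or nuclear total or median scaling or pseudocount 20, 3 with resolution 0.5, 4 with a minimum of 50 UMIs and 5 with no UMI minimum. The mitochondrial set in astrocyte-like cells between genotypes (0.067) became 0.079 with matrix barcodes without maximum or equal clusters, 0.13 with a 10% maximum, 0.053 with middle depth, 0.023 with equal cells and 0.080 with non-ribosomal nuclear total. The nuclear set in astrocyte-like cells between genotypes (0.19) became 0.16 with matrix barcodes to 20%, 0.14 with a 10% maximum, 0.20 with doublets left out, 0.24 with middle depth, 0.21 with equal cells, 0.050 with equal clusters and 0.17 with resolution 0.5. The count of nuclear members past the threshold in astrocyte-like cells between genotypes (8) became 5 with matrix barcodes to 20% or resolution 0.5, 3 with a 10% maximum, 13 with doublets left out, 21 with middle depth, 18 with equal cells and 4 with equal clusters or pseudocount 20. The mitochondrial set in tanycyte-like cells over neuron-like cells (0.17) became 0.33 with matrix barcodes without maximum, 0.29 with equal clusters or resolution 2 and 0.39 with resolution 0.5. The nuclear set in tanycyte-like cells over neuron-like cells (-0.52) became -0.44 with matrix barcodes without maximum, -0.48 with middle depth or equal cells, -0.46 with equal clusters, -0.38 with resolution 0.5 and -0.43 with resolution 2. The nuclear set in astrocyte-like cells over neuron-like cells (-0.83) became -1.05 with middle depth and -0.56 with equal clusters. The count of nuclear members past 1.5-fold in astrocyte-like cells over neuron-like cells (53) became 24 with equal clusters.

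No paired analysis was possible because each genotype has 1 library and the labels give no replicate numbers. With 1 pool per genotype, counting intervals do not cover the spread between animals, and classes of under 50 cells rest on few cells. Nuclear members at a few UMIs (Cox8b, Cox4i2 in neurons, Cox6a2 in glia) are not resolved at this depth.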

Other observations

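Some mitochondrial genes differed between cell classes in a way that the set's total does not show. Averaged over both libraries, mt-Co1 stood at a log2 ratio of 0.48 over neuron-like cells in tanycyte-like, 0.67 in astrocyte-like and 0.71 in ependymal-like cells. mt-Nd1, from the same transcript, stood at -0.44, 0.02 and -1.14, and mt-Nd2 and mt-Nd3 at -0.77 and -0.81 in ependymal-like cells.

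Across the 29 clusters the nuclear and the mitochondrial share were ordered differently. Spearman's rho between them was -0.31 in control and -0.14 in dHet, and over the 18 neuron-like clusters 0.02 and -0.04. The nuclear share followed the median UMIs per cell of the cluster with a rho of 0.63 and 0.72. These are descriptions over clusters that share a library.

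The 2 tanycyte-like clusters gave mitochondrial ratios of 1.30 (led by Crym and S100a6) and 1.20 (led by Scn7a and Cldn10), with nuclear ratios of 1.00 and 0.962. An unnamed shallow cluster led by Lgmn and Ctsd, with 122 and 57 cells, had the lowest nuclear ratio (3.93% and 2.51%, 0.638).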
